A study of Mus musculus with 14 samples.

Results

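The 6 antimicrobial genes described here, *Lyz1*, *Mmp7*, *Ang4*, *Itln1*, *Defa17* and *Defa24*, are made mainly by Paneth cells and were taken by symbol from a deposited expression table of 18781 genes. The table held RNA of 14 libraries of untreated organoids, which are epithelial cultures raised from stem cells of the mouse small intestine and kept in Matrigel. WT organoids (n = 4) carried floxed alleles of both *Atg16l1* and *Rnaseh2b* per their genotype labels, while the study's text names floxed *Rnaseh2b* alone for the organoid controls. That they carried no Cre recombinase is inferred from their use as WT controls. *Atg16l1*ΔIEC organoids (n = 4) had lost *Atg16l1*, a part of the autophagy machinery, and *Rnaseh2b*ΔIEC organoids (n = 2) had lost *Rnaseh2b*, a subunit of the enzyme RNase H2 that removes ribonucleotides from DNA. The double-knockout *Atg16l1/Rnaseh2b*ΔIEC organoids (n = 4), called DKO here, had lost both. In every knockout group the floxed alleles were deleted by Cre under the *Villin* promoter, which is active throughout the intestinal epithelium and is not limited to Paneth cells. The age of the donor mice is not given for the organoids. Nothing in the labels says that the libraries of a group came from separate mice, so the p-values measure the spread between these libraries, which may be technical.

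Paneth cells sit at the base of small intestinal crypts between the stem cells and release granules filled with antimicrobial proteins. Their granules are built in the endoplasmic reticulum and Golgi, and loss of *Atg16l1* is known for disordered Paneth cell granules in mice and in carriers of a Crohn's disease risk allele. Lysozyme (*Lyz1*) cleaves the bacterial cell wall, α-defensins such as *Defa17* and *Defa24* puncture bacterial membranes after matrix metalloproteinase 7 (*Mmp7*) has cut their proforms, angiogenin 4 (*Ang4*) is a bactericidal ribonuclease, and intelectin 1 (*Itln1*) is a lectin that binds microbial sugars and is also made by goblet cells.

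The α-defensin genes lie in a cluster of near-identical copies, so the sequence sets how well a read can be placed. The coding sequences of *Defa17* (GRCm38 chr8:21655801-21656638, plus strand, exons joined) and *Defa24* (chr8:21734537-21735374, plus strand) in GENCODE M21 are shown because the results for both genes rest on reads of 50 bases from them. Capitals mark the 12 bases of 279 at which they differ, an identity of 95.7%.
Defa17: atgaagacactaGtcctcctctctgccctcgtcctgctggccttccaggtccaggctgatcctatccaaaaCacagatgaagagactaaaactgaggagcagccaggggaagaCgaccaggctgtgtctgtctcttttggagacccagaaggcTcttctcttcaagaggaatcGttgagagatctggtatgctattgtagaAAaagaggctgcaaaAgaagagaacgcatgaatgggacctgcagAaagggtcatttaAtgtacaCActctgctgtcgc
Defa24: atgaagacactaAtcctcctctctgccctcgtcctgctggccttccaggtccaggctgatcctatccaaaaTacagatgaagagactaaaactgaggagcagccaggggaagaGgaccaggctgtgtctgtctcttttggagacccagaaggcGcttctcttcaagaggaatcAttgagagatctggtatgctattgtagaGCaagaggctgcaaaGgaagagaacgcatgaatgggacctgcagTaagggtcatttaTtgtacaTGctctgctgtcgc
The coding sequence of *Defa17* is 100% identical to that of *Defa3*, and 320 of the 348 stretches of 50 bases in the *Defa17* transcripts (92.0%) also occur in *Defa3*. *Defa3* was listed between 2.80 and 2.85 on the log2 scale in all libraries. How reads with several equal placements were counted is not given in the sources used here. The *Defa17* value may thus hold reads of *Defa3* or lack reads of its own, and is uncertain. *Defa24* shared 28.1% of its stretches with other genes, mostly with *Defa30* (26.5%). For *Lyz1* the share was 16.1%, all with *Lyz2*, for *Ang4* 4.70% and for *Itln1* 0.972%, and *Mmp7* shared none.

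The promoters of *Itln1*, the member with the largest difference between genotypes, and of *Mmp7*, the only member with a match to the motifs searched, are shown as the 250 bases before the RefSeq start (GRCm38.p6, chr1:171535295-171535544, minus strand, and chr9:7691840-7692089, plus strand), 5′ to 3′ on the strand of the gene. Capitals mark motif matches.
Itln1: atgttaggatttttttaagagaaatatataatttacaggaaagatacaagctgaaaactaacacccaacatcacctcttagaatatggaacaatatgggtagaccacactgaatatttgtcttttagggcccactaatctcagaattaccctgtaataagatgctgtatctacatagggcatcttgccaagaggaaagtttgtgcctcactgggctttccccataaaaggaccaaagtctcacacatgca
Mmp7: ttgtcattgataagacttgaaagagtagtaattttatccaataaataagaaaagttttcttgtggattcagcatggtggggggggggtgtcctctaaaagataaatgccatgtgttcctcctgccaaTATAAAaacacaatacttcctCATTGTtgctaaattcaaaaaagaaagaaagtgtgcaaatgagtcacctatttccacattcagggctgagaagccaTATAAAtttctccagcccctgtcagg
The motifs searched were TATAAA (the core of the TATA box, gene strand), CTTTGA (core of the TCF/LEF factors that answer Wnt), ACAATG (core of the SOX factors, such as SOX9) and CAGCTG (an E-box bound by factors such as ATOH1), the last 3 on both strands. *Mmp7* held the TATA box core starting 123 and 26 bases before the start, and the SOX core on the reverse strand 102 bases before it. Among 32536 promoter windows, 7.55% held the TATA box core, 13.9% the TCF/LEF core, 10.5% the SOX core and 13.1% the E-box. RefSeq promoters were found for 4 of the 6 members, and the windows of *Lyz1*, *Ang4* and *Itln1* held none of these letters.

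Read depth per library cannot be taken from the deposited log2 values and is unknown. *Atg16l1* was between 9.43 and 9.54 in WT, between 6.73 and 7.35 in *Atg16l1*ΔIEC and between 8.14 and 8.57 in DKO organoids, and *Rnaseh2b* was between 8.41 and 8.70 in WT, between 7.15 and 7.21 in *Rnaseh2b*ΔIEC and between 7.68 and 7.92 in DKO organoids. Both deleted genes were thus lower in their knockouts, with a smaller drop in DKO organoids. Sequencing lane 1 held the WT libraries and lane 2 those of both single knockouts. DKO libraries 1 and 2 were in lane 2 and libraries 3 and 4 in lane 1. Only the DKO libraries thus allow lane to be separated from genotype, and there lane coincides with the pairs 1 and 2, 3 and 4. Libraries 1 and 2 of a genotype, and likewise 3 and 4, deviated together from their genotype mean across the tested genes (r between 0.41 and 0.86, median 0.70, 6 pairs). A group of 4 may thus hold fewer than 4 independent cultures. The *Rnaseh2b*ΔIEC group held libraries 1 and 2 only, so it may stem from a single culture. The defining immune gene *Ptprc* was listed between 0.47 and 0.53 and *Cd3e* between -1.33 and -1.31 in all libraries, below the mean log2 level of 3.32 required for testing.

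All 6 members passed the expression filter. Per kilobase of exon, the log2 level in WT organoids was highest for *Defa24* (14.05) and *Itln1* (13.90), which ranked 28 and 32 among the 12802 genes tested, followed by *Lyz1* (12.14), *Ang4* (11.51), *Defa17* (10.17) and *Mmp7* (8.64, rank 3051). *Defa24* and *Itln1* differed by less than the spread of *Defa24* between WT libraries (SD 0.26), whereas the other neighbours in this order were further apart than their spread. The place of *Defa17* is uncertain, as most of its stretches are shared with *Defa3*. The organoids of every genotype thus expressed Paneth cell products. Added together on the linear scale, the 6 genes made up between 0.151% and 0.165% of the total of a WT library, between 0.104% and 0.170% in *Atg16l1*ΔIEC, between 0.125% and 0.149% in *Rnaseh2b*ΔIEC and between 0.216% and 0.286% in DKO organoids. In bulk RNA, a change in the number of Paneth cells and a change in RNA per cell cannot be told apart.

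The first question was whether the loss of both genes, compared with neither, went along with other levels of these genes. All 6 members were higher in DKO than in WT organoids, by 0.26 to 0.75 on the log2 scale with a median of 0.60, beside a median of 0.00 over all tested genes. In the fit across all genes, 4 of 6 passed the threshold (*Mmp7*, *Defa17*, *Itln1* and *Defa24*), all of them higher, whereas 16.1% of all tested genes passed in either direction and 8.1% passed as higher. With the pairs of libraries (1 and 2, 3 and 4) as a random block, all 4 calls were lost (limma adjusted p = 0.12 for *Mmp7*, 0.26 for *Defa17*, 0.099 for *Itln1* and 0.29 for *Defa24*), and the calls over all genes went from 2063 to 85. For all 6 members every DKO library was above every WT library, which held for 11.4% of the tested genes.

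*Lyz1* (ENSMUSG00000069515, chr10:117287797-117292868, minus strand) was 12.25, 12.28, 12.72 and 12.64 in WT libraries 1 to 4, 12.81, 12.96, 12.004 and 12.04 in *Atg16l1*ΔIEC libraries 1 to 4, 12.41 and 12.23 in *Rnaseh2b*ΔIEC libraries and 13.13, 12.92, 12.97 and 12.89 in DKO libraries. The DKO libraries were above all WT and *Rnaseh2b*ΔIEC libraries but overlapped with *Atg16l1*ΔIEC library 2. Lysozyme was 0.50 higher in DKO than in WT organoids (standard error 0.19, limma adjusted p = 0.089), which missed the threshold. The standard error pools the spread of all groups. That spread was widest in *Atg16l1*ΔIEC libraries (SD 0.50, beside 0.24 in WT, 0.13 in *Rnaseh2b*ΔIEC and 0.11 in DKO). *Lyz2*, the related gene best known from myeloid cells, was between 3.77 and 3.94 in all libraries, although the 250 bases before its start were 79.4% identical to those of *Lyz1*.

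*Mmp7* (ENSMUSG00000018623, chr9:7692090-7699585, plus strand) was 8.65, 8.70, 8.89 and 8.71 in WT, 9.16, 9.47, 8.52 and 8.43 in *Atg16l1*ΔIEC, 9.01 and 8.87 in *Rnaseh2b*ΔIEC and 9.81, 9.53, 9.32 and 9.30 in DKO libraries. As with *Lyz1*, *Atg16l1*ΔIEC libraries 1 and 2 were high and 3 and 4 low, and library 2 overlapped with DKO. The protease that activates the α-defensins was 0.75 higher in DKO than in WT organoids (standard error 0.19, limma adjusted p = 0.021).

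*Defa17* (ENSMUSG00000060208, chr8:21655780-21656735, plus strand) was 8.61, 8.57, 9.01 and 9.15 in WT, 8.85, 9.23, 8.43 and 8.44 in *Atg16l1*ΔIEC, 9.20 and 8.77 in *Rnaseh2b*ΔIEC and 9.87, 9.36, 9.38 and 9.35 in DKO libraries. *Defa24* (ENSMUSG00000064213, chr8:21734494-21735471, plus strand) was 12.65, 12.51, 12.93 and 13.07 in WT, 12.51, 12.92, 12.18 and 12.25 in *Atg16l1*ΔIEC, 12.98 and 12.63 in *Rnaseh2b*ΔIEC and 13.71, 13.23, 13.27 and 13.19 in DKO libraries. Both α-defensins ordered the libraries almost alike, with DKO library 1 highest, the other DKO libraries next and *Atg16l1*ΔIEC libraries 3 and 4 lowest. The difference between DKO and WT organoids was 0.65 for *Defa17* (standard error 0.19, limma adjusted p = 0.038) and 0.56 for *Defa24* (standard error 0.17, limma adjusted p = 0.042).

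*Ang4* (ENSMUSG00000060615, chr14:51763878-51773590, minus strand) was 11.03, 10.98, 11.06 and 10.99 in WT, 10.86, 11.01, 10.36 and 10.36 in *Atg16l1*ΔIEC, 11.12 and 11.04 in *Rnaseh2b*ΔIEC and 11.47, 11.32, 11.18 and 11.13 in DKO libraries. The ribonuclease showed the smallest difference of the 6 between DKO and WT organoids, 0.26 (standard error 0.13, limma adjusted p = 0.17), although the libraries did not overlap.

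*Itln1* (ENSMUSG00000038209, chr1:171518122-171535294, minus strand) was 14.18, 14.15, 14.05 and 13.99 in WT, 14.08, 13.97, 13.49 and 13.59 in *Atg16l1*ΔIEC, 13.90 and 13.65 in *Rnaseh2b*ΔIEC and 14.98, 14.63, 14.72 and 14.58 in DKO libraries. The DKO libraries stood above all 10 others, and both *Rnaseh2b*ΔIEC libraries were below all WT libraries. The lectin was 0.64 higher in DKO than in WT organoids (standard error 0.12, limma adjusted p = 0.0065).

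**Figure D1:**
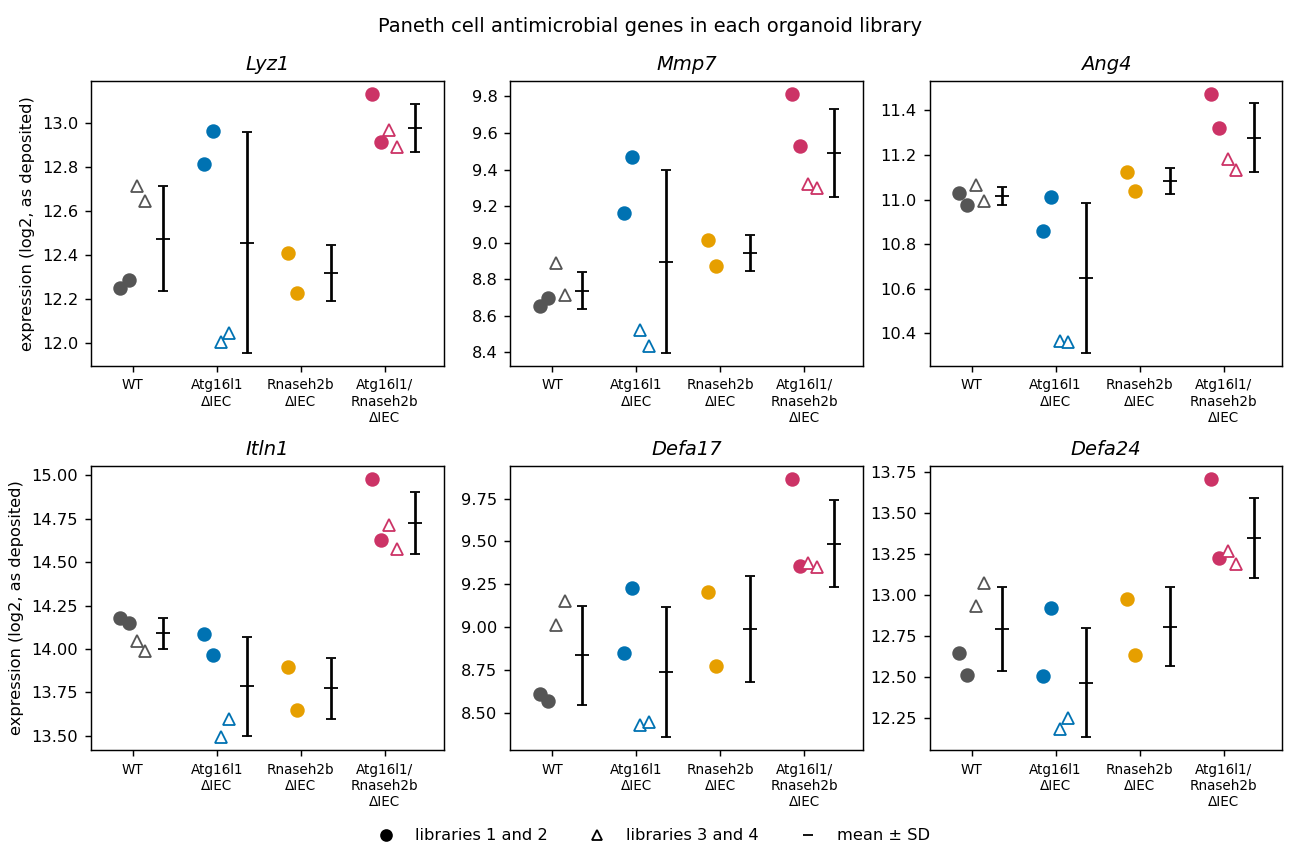
Deposited log2 expression of each gene in the 14 libraries by genotype; filled circles are libraries 1 and 2, open triangles libraries 3 and 4, and bars give the mean ± SD (n = 4, and n = 2 for *Rnaseh2b*ΔIEC). Every DKO library lies above every WT library in all 6 panels, and *Atg16l1*ΔIEC libraries 3 and 4 are the lowest of their group.

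The exact two-sided permutation test gave p = 0.0286 for each of the 6 genes in DKO against WT, the smallest value that 4 against 4 libraries can give. It treated each library as independent and so does not allow for the pairs that deviated together. The calls depended on how the libraries were treated. Beside the loss of every call with the pairs as a random block, with lane as a covariate only *Itln1* passed (0.56, limma adjusted p = 0.034). The lane term rests on DKO libraries 1 and 2 against 3 and 4 alone, so it cannot be told apart from the difference between these pairs. Within lane 1, where DKO libraries 3 and 4 met all WT libraries, 3 of 6 passed, beside 1311 of the 12802 tested genes in either direction. The difference there was 0.14 for *Ang4*, 0.44 for *Defa24*, 0.46 for *Lyz1*, 0.53 for *Defa17*, 0.56 for *Itln1* and 0.57 for *Mmp7*. Leaving out DKO library 1, WT library 1 or WT library 2 left 1 of 6 called. The share of all tested genes called without these libraries is not given here.

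The next comparisons asked what each single deletion did. In *Rnaseh2b*ΔIEC against WT organoids 0 of 6 members passed in limma, also at an unadjusted p under 0.05, where 26.7% of all tested genes were called in either direction. The log2 differences ran from -0.32 for *Itln1* (95% confidence interval -0.65 to 0.01) to 0.21 for *Mmp7* (-0.30 to 0.71), with a median of 0.04. The direction differed among the members, with *Lyz1* (-0.16) on the side of *Itln1* and *Ang4* (0.07), *Defa17* (0.15) and *Defa24* (0.01) on that of *Mmp7*. *Itln1* was the only member whose *Rnaseh2b*ΔIEC libraries did not overlap with WT. Its exact two-sided permutation p was 0.0667, the smallest that 2 against 4 libraries can give. The share of all tested genes without overlap was not computed here, so this count lacks a background. *Itln1* passed when only these groups were fitted (limma adjusted p = 0.024), beside 4054 of the 12802 tested genes in either direction.

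In *Atg16l1*ΔIEC against WT organoids 0 of 6 members passed in limma, with 2 at an unadjusted p under 0.05 (*Ang4* and *Itln1*), beside 19.1% of all tested genes called in either direction. *Ang4* differed by -0.37 (95% confidence interval -0.64 to -0.09, limma adjusted p = 0.058), *Defa24* by -0.33 (-0.69 to 0.04), *Itln1* by -0.31 (-0.57 to -0.04), *Defa17* by -0.10 (-0.52 to 0.32), *Lyz1* by -0.02 (-0.43 to 0.40) and *Mmp7* by 0.16 (-0.25 to 0.57). These means stood for 2 unlike pairs of libraries. The mean of libraries 1 and 2 was above that of libraries 3 and 4 for 6 of 6 members. The differences ran from 0.48 (*Itln1*) to 0.86 (*Lyz1*) with a median of 0.59, whereas their median size was 0.08 over all tested genes in this group. Of 17 other Paneth cell products tested, 12 were higher and 5 lower in libraries 1 and 2, with a median of 0.07. Markers of other cells moved with this split: 11 of 11 enterocyte genes were lower in libraries 1 and 2 (by a median of -0.48, with *Fabp1* at -0.93 and *Lct* at -0.81), whereas 11 of 11 crypt stem cell genes (median 0.19), 10 of 10 enteroendocrine genes (median 0.28) and 9 of 12 goblet cell genes (median 0.24) were higher, and their part in the members' values was not tested.

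Read against WT, the pairs gave different pictures. With libraries 3 and 4 of *Atg16l1*ΔIEC alone, 4 of 6 members passed as lower (*Ang4* -0.65, *Defa24* -0.58, *Itln1* -0.55 and *Lyz1* -0.45), and with libraries 1 and 2 alone only *Mmp7* passed, as higher (0.58). These 2 fits were chosen after the values were seen. The share of all tested genes called in them is not given here, so the counts lack a background. In WT organoids the members went the other way, with 1 of 6 higher in libraries 1 and 2 and differences from -0.49 to 0.15, while 11 of 11 enterocyte genes were higher there (median 0.41, *Fabp1* 1.43) and 11 of 12 goblet and 10 of 10 enteroendocrine genes lower. In DKO organoids 6 of 6 members were higher in libraries 1 and 2, by 0.09 to 0.36, and there the pairs also lay in different lanes. The libraries 1 to 4 of *Atg16l1*ΔIEC shared a lane. Culture, mouse and other features of a pair cannot be told apart.

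**Figure D2:**
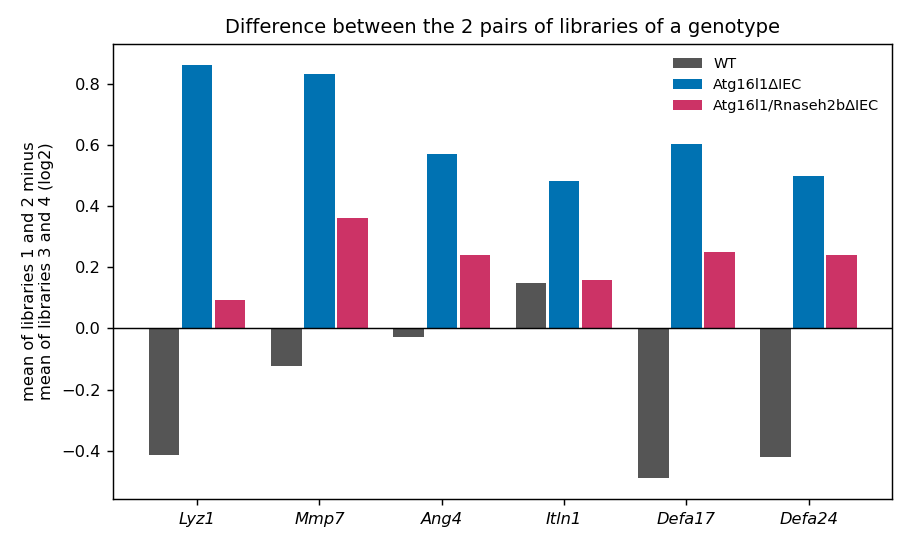
Mean of libraries 1 and 2 minus mean of libraries 3 and 4 (log2) for each gene in WT, *Atg16l1*ΔIEC and DKO organoids; *Rnaseh2b*ΔIEC has libraries 1 and 2 only. The *Atg16l1*ΔIEC bars lie between 0.48 and 0.86, above those of the other genotypes for every gene. In DKO organoids the pairs were also in different lanes.

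Against *Atg16l1*ΔIEC organoids, 5 of 6 members were called higher in DKO organoids. Over all tested genes, 25.1% were called in either direction and 12.6% as higher. The 2 groups differ in the loss of *Rnaseh2b*, but *Atg16l1* itself was also 1.46 higher in DKO organoids (limma adjusted p = 2.0e-05). The part of that difference in the members' values was not tested. The log2 differences were 0.94 for *Itln1* (standard error 0.12, limma adjusted p = 0.00043), 0.88 for *Defa24* (standard error 0.17, limma adjusted p = 0.0034), 0.75 for *Defa17* (standard error 0.19, limma adjusted p = 0.015), 0.63 for *Ang4* (standard error 0.13, limma adjusted p = 0.0043) and 0.59 for *Mmp7* (standard error 0.19, limma adjusted p = 0.038). *Lyz1*, at 0.52, did not pass (limma adjusted p = 0.063). No DKO library was within the range of the *Atg16l1*ΔIEC libraries for *Itln1*, *Defa17*, *Defa24* and *Ang4*, 4 of 6 members, which held for 12.1% of the tested genes (exact two-sided permutation p = 0.0286 each). With the pairs of libraries as a random block, *Itln1* and *Ang4* passed. Without *Atg16l1*ΔIEC libraries 3 and 4, *Lyz1* fell from 0.52 to 0.09 and *Mmp7* from 0.59 to 0.18, *Itln1* (0.70) and *Ang4* (0.34) still passed, and *Defa17* (0.45) and *Defa24* (0.63) did not. Without *Atg16l1*ΔIEC replicate 3, or without replicate 4, 3 of 6 passed. The share of all tested genes called in these fits is not given here, so the counts lack a background.

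Against *Rnaseh2b*ΔIEC organoids, 1 of 6 members was called, *Itln1*, beside 25.5% of all tested genes in either direction and 11.1% as higher. These groups differ in the loss of *Atg16l1*, but *Rnaseh2b* itself was also higher in DKO organoids. The part of that difference in the members' values was not tested. *Itln1* was 0.95 higher in DKO organoids (standard error 0.15, limma adjusted p = 0.0012), and it also passed with the pairs as a random block (limma adjusted p = 0.02). *Lyz1* differed by 0.66 (95% confidence interval 0.15 to 1.17), *Mmp7* by 0.55 (0.04 to 1.05), *Defa24* by 0.54 (0.09 to 0.99), *Defa17* by 0.50 (-0.01 to 1.01) and *Ang4* by 0.20 (-0.14 to 0.53), with limma adjusted p between 0.056 and 0.38. The count was 2 without *Atg16l1*ΔIEC replicate 1, 3 or 4, and 4 without *Atg16l1*ΔIEC replicate 2. These libraries are not part of the differences and act only through the spread that the fit shares across groups. For these leave-out counts, the share of all tested genes called is not given here. The count was 3 when only the groups compared were fitted, beside 2456 of all tested genes in either direction. For all 6 members both *Rnaseh2b*ΔIEC libraries were below all DKO libraries, which held for 24.1% of the tested genes.

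The single knockouts were also set against each other. In *Rnaseh2b*ΔIEC against *Atg16l1*ΔIEC organoids 0 of 6 members passed in limma, with 1 at an unadjusted p under 0.05 (*Ang4*, 0.43, 95% confidence interval 0.10 to 0.77), and 6.81% of all tested genes were called in either direction.

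Whether losing *Rnaseh2b* had a different effect beside deleted than beside intact *Atg16l1* was tested as a term of its own (DKO minus *Atg16l1*ΔIEC, less *Rnaseh2b*ΔIEC minus WT), with 3 of 6 members called, beside 35.1% of all tested genes in either direction. It was 1.26 for *Itln1* (standard error 0.20, limma adjusted p = 0.00052), 0.87 for *Defa24* (standard error 0.27, limma adjusted p = 0.024) and 0.56 for *Ang4* (standard error 0.20, limma adjusted p = 0.043). *Lyz1* (0.68), *Defa17* (0.60) and *Mmp7* (0.39) had limma adjusted p between 0.10 and 0.34. For *Itln1*, loss of *Rnaseh2b* thus went with a value of -0.32 beside intact *Atg16l1* and of 0.94 beside deleted *Atg16l1*. *Atg16l1* RNA itself had a term of 1.40 (limma adjusted p = 0.00022), as it dropped less in DKO organoids. The 2 groups with deleted *Atg16l1* were thus not alike in its level. *Rnaseh2b* RNA likewise dropped less in DKO than in *Rnaseh2b*ΔIEC organoids, so the term compares unlike losses of *Rnaseh2b*. With the pairs as a random block, and also with lane as a covariate, *Itln1* was the only member called. The DKO libraries enter each of the comparisons with WT, *Atg16l1*ΔIEC and *Rnaseh2b*ΔIEC, and the WT and *Atg16l1*ΔIEC libraries enter more than 1 of them, so their results are not independent.

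**Figure D3:**
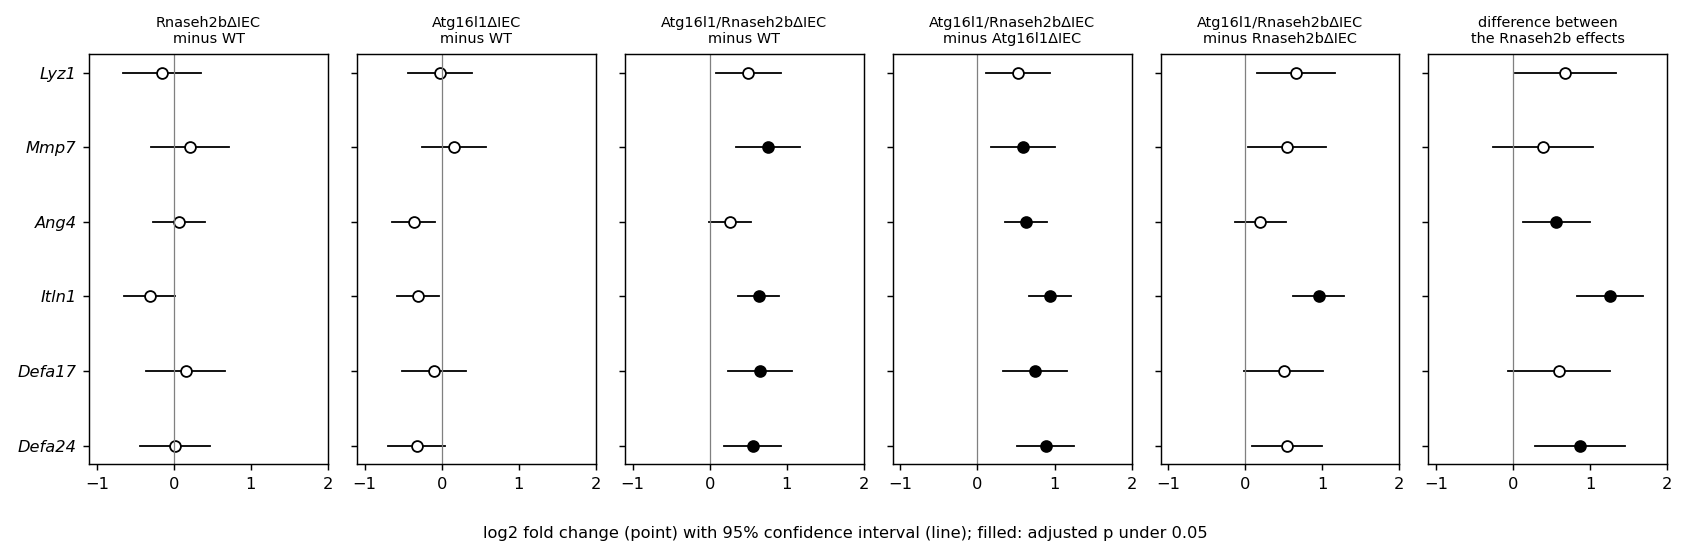
Log2 fold change of each gene (point) with its 95% confidence interval (line) in the comparisons named above each panel, from limma on 14 libraries; filled points had an adjusted p under 0.05, and the last panel is the *Rnaseh2b* effect beside deleted *Atg16l1* minus that beside intact *Atg16l1*. *Itln1* is filled in all 4 panels that involve DKO.

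The members varied together. Over the 14 libraries, the 15 pairs of members had Pearson's r between 0.75 (*Lyz1* and *Ang4*) and 0.97 (*Defa17* and *Defa24*), median 0.83, and Spearman's rho between 0.65 and 0.94. With each genotype's mean removed, r was between 0.59 and 0.99, median 0.83, and over the 10 libraries other than DKO it was between 0.37 and 0.92. These are descriptions over libraries that share pairs, lanes and genotypes. Pairwise r among other tested genes was not computed, so varying together is not shown to be particular to the members. The gene with the pattern most like the mean z-score of the members over the 14 libraries was *Mphosph10* (r = 0.97, rho = 0.96). The nearest single genes outside the members were *Gart* for *Defa17* (r = 0.98) and *Defa24* (r = 0.96), *Epb42* for *Lyz1* (r = 0.97), *Ints3* for *Itln1* (r = 0.96), *Ftsj3* for *Mmp7* (r = 0.96) and *Cdca7* for *Ang4* (r = 0.94, rho = 0.48).

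Of 54 other Paneth cell products listed, 25 were in the table and 17 were tested. In DKO against WT organoids 2 were higher, 1 was lower and 14 did not pass, a share near that of all tested genes, and 13 of 17 differences were above 0, with a median of 0.12 and 8 at an unadjusted p under 0.05. The summed level of the 25 genes in the table, in which high genes weigh most, went the other way. It was between 13.54 and 13.68 on the log2 scale in WT and between 13.01 and 13.48 in DKO libraries. For the 6 members the sum was between 14.96 and 15.08 in WT and between 15.45 and 15.86 in DKO libraries. The difference of this list from the 6 members was not tested. *Clps*, the colipase, was 0.71 higher (limma adjusted p = 0.016) and the α-defensin *Defa26* was 0.40 higher (limma adjusted p = 0.0043), whereas *Guca2b*, encoding uroguanylin, fell by 0.66 (limma adjusted p = 0.018). *Defa26* shared 40.2% of its 50-base stretches with other genes. Against *Atg16l1*ΔIEC organoids 4 rose and 2 fell, among them *Clps* (1.05) and *Habp2* (0.83), and against *Rnaseh2b*ΔIEC organoids 3 rose and 3 fell.

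Among 20 tested regulators of Paneth cell and secretory fate, 1 was higher and 1 lower in DKO than in WT organoids: *Spdef*, a transcription factor of secretory maturation, by 0.27 (limma adjusted p = 0.034) and *Xbp1*, the unfolded protein response factor that secretory cells need, which fell by 0.12 (limma adjusted p = 0.046). In *Atg16l1*ΔIEC against WT organoids 1 was higher and 6 were lower, among them *Kit* (-0.79), *Tcf7l2*, the main Wnt effector of the crypt (-0.42), and the Paneth cell Wnt ligand *Wnt3* (-0.34). In *Rnaseh2b*ΔIEC against WT organoids 1 was higher, the Notch ligand *Dll1* (0.54), and 5 were lower, with *Kit* (-0.84) and *Tcf7l2* (-0.63) showing the largest differences. Against *Atg16l1*ΔIEC organoids, 8 were higher and 1 lower in DKO organoids, including *Kit* (0.66), the receptor *Ephb3* that positions Paneth cells (0.51) and *Sox9*, which Paneth cell formation requires (0.48).

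Of 17 tested genes for granule packaging, NOD2 signalling and autophagy, 0 were higher and 3 lower in DKO than in WT organoids, namely *Atg16l1* itself (-1.07), the stress sensor *Ern1* (-0.31) and the NADPH oxidase subunit *Cyba* (-0.26). In *Atg16l1*ΔIEC organoids 3 were higher than in WT, among them *Irgm1* (0.26) and the LC3 relative *Gabarapl1* (0.20), and 1 was lower, *Atg16l1*.

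Markers of other epithelial cells moved in the same comparisons. Of 12 tested goblet cell genes, 11 rose and 0 fell in DKO against *Atg16l1*ΔIEC organoids (median 0.47), 9 rose and 0 fell against *Rnaseh2b*ΔIEC (median 0.68), and 2 rose and 1 fell against WT organoids (median 0.25). *Fcgbp*, a mucus component, was 0.91 higher than in *Atg16l1*ΔIEC, *Tff3*, a trefoil peptide of goblet cells, was 0.80 higher, and *Clca1* was 1.18 higher than in *Rnaseh2b*ΔIEC organoids but fell by 0.50 against WT organoids. The summed level of the 13 goblet genes in the table was between 15.94 and 16.44 on the log2 scale in WT, between 15.47 and 15.77 in *Atg16l1*ΔIEC, between 15.55 and 15.71 in *Rnaseh2b*ΔIEC and between 16.36 and 16.63 in DKO libraries. *Retnlb*, a goblet cell product of inflamed or colonised gut, was at -1.49 in the mean of WT libraries. The part of goblet cells in the *Itln1* values was not tested.

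Stem cell and absorptive markers differed as well. Of 11 crypt stem cell genes, 9 were lower and 0 higher in *Atg16l1*ΔIEC and 4 were lower and 0 higher in *Rnaseh2b*ΔIEC than in WT organoids, with *Lgr5*, the marker of crypt base stem cells, at -0.85 and -0.97. In DKO against WT organoids 2 were lower (*Olfm4*, -1.51, and *Rgmb*, -0.35) and 0 higher. Of 11 enterocyte genes, 10 were higher and 0 lower in *Rnaseh2b*ΔIEC than in WT organoids (median 1.22) and 10 were lower and 0 higher in DKO than in *Rnaseh2b*ΔIEC organoids (median -1.15), for example the apolipoprotein *Apoa4* (1.37 and -1.53). The summed enterocyte level was between 17.59 and 18.23 in WT, between 17.84 and 18.60 in *Atg16l1*ΔIEC, between 18.68 and 18.80 in *Rnaseh2b*ΔIEC and between 17.33 and 17.88 in DKO libraries. Of 10 enteroendocrine genes, 2 were higher and 0 lower in DKO than in WT organoids, *Neurog3* (0.52) and *Gip* (0.52). Among 6 tuft cell genes, 5 were lower and 0 higher in *Rnaseh2b*ΔIEC than in WT organoids. Both single knockouts lay in another lane than WT, and the *Rnaseh2b*ΔIEC libraries may stem from a single culture. In their differences from WT, lane and culture cannot be told apart from genotype. Within WT organoids, 11 of 11 enterocyte genes were higher in libraries 1 and 2 than in 3 and 4 (median 0.41). Of 15 stromal and immune genes only 3 could be tested and 0 were called in any comparison.

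**Figure D4:**
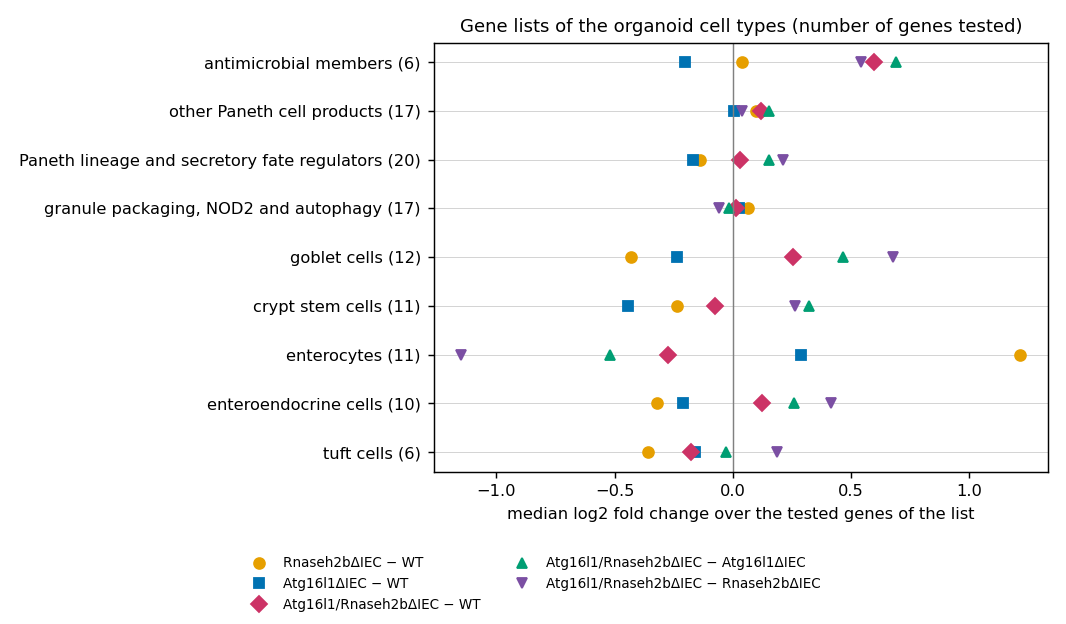
Median log2 fold change over the tested genes of each list (their number in brackets) in 5 comparisons. The 6 antimicrobial genes have medians from 0.54 to 0.69 in the 3 comparisons that involve DKO, and the goblet cell genes from 0.25 to 0.68.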

How the data were processed

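RNA of 14 organoid libraries was sequenced by the authors as stranded mRNA libraries (single reads of 50 bases). Per the labels and the methods, they used cutadapt, TopHat2 with GRCm38, HTSeq and DESeq2. The authors deposited log2 values per gene, whose transformation is not named. Low genes are pulled together between libraries (median SD 0.06 for genes between 3 and 4, 0.12 between 8 and 9), which understates their fold changes. Whole reads were not recovered, and no count model was run. Library names in the labels linked every column to its sample (0 unmapped). Symbols and positions came from GENCODE M21 (99.7% of genes matched), promoters from RefSeq. The members and gene lists were chosen with earlier results of these data known.

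A mean log2 value of at least 3.32 (10 on the linear scale) was required, and the 12802 genes that had it entered a joint fit of the 14 libraries with limma 3.58.1 in R 4.3.3 (a mean per genotype, no covariate, eBayes with a trend), with Benjamini-Hochberg adjustment at 0.05. The spread of every group thus enters the standard error of each comparison. The test was checked on simulated data with independent libraries, without pairs or lanes, so the check cannot show how these affect the calls. Exact permutation tests were two-sided and used each library as a unit, so none of their p-values allows for the pairs. Besides the members, up to 3 genes per list and comparison with the largest called change were named, as were the nearest genes by Pearson's r and the deleted genes. *Lyz2*, *Defa3*, *Ptprc*, *Cd3e* and *Retnlb* were named for their levels. Alternatives were pseudocounts of 1 and 5 on back-transformed values, filters of 0 and 50 on the linear mean, scaling to equal upper quartiles or totals, a lane term, a replicate block, fits of the compared groups or of a lane alone, pairs of libraries averaged or as a random block (statmod 1.5.0), a log2 fold change over 1, and each library left out. Leaving out pairs was added after the values were seen. Shared stretches were exact matches of 50 bases between transcripts. Identities were computed with Biopython 1.88, and figures drawn with matplotlib 3.10.9.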

Additional observations from a re-analysis of the deposited data

Results flagged for a closer look

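For 3 of the 6 genes the effect of *Rnaseh2b* deletion differed by a test between organoids with and without *Atg16l1* deletion. Among all tested genes 35.1% were called in either direction, and the count of members was not tested against that share. The difference was 1.26 for *Itln1* (limma adjusted p = 0.00052), 0.87 for *Defa24* (limma adjusted p = 0.024) and 0.56 for *Ang4* (limma adjusted p = 0.043), all on the log2 scale. With the pairs of libraries as a random block *Itln1* was still called (limma adjusted p = 0.010), but *Defa24* (limma adjusted p = 0.17) and *Ang4* (limma adjusted p = 0.11) were not, and with lane as a covariate they were not either (limma adjusted p = 0.067 and 0.057). Leaving out single libraries took the limma adjusted p up to 0.14 for *Defa24* and 0.15 for *Ang4*.

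In 2 of 18 gene and genotype groups of 4 libraries, 1 library lay far from the others. DKO library 1 was at 9.87 for *Defa17*, with the others between 9.35 and 9.38, and at 13.71 for *Defa24*, with the others between 13.19 and 13.27. Chance flags about 1 in 20 such groups, and both genes share reads and move together. Without that library, the difference from WT organoids was 0.52 for *Defa17* and 0.44 for *Defa24*, and neither passed.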

How the results depend on the processing

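The members called in the main fit numbered 0 of 6 in *Rnaseh2b*ΔIEC against WT, 0 in *Atg16l1*ΔIEC against WT, 4 in DKO against WT, 5 in DKO against *Atg16l1*ΔIEC, 1 in DKO against *Rnaseh2b*ΔIEC, 0 in *Rnaseh2b*ΔIEC against *Atg16l1*ΔIEC and 3 for the difference between the *Rnaseh2b* effects. In the 3 comparisons of DKO with WT, *Atg16l1*ΔIEC and *Rnaseh2b*ΔIEC, no member changed direction under any alternative run. Leaving out each library gave 0 to 0, 0 to 2, 1 to 4, 3 to 6, 1 to 4, 0 to 1 and 1 to 5 in the same order. The shares of all tested genes called with a library left out are not given here.

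Averaging the pairs of libraries left 0 members called in every comparison and 0 to 2 of all genes, and as a random block (consensus correlation 0.65) they left 0 in DKO against WT, 2 in DKO against *Atg16l1*ΔIEC and 1 for the difference between effects. A log2 fold change over 1 left 0, 0 and 0 in the 3 comparisons of DKO and 1 for the difference. Lane as a covariate left 1 in DKO against WT and 1 for the difference, and no filter left 2 in DKO against WT. Total scaling gave 2 in DKO against *Rnaseh2b*ΔIEC. Fitting only the groups compared gave 1 in *Rnaseh2b*ΔIEC against WT and 3 in DKO against *Rnaseh2b*ΔIEC. The causes were not tested, except that averaging leaves fewer values. Equal replicate numbers in different genotypes did not deviate together (r from -0.50 to 0.44, median -0.05, 18 pairs of libraries), so they do not pair the samples. The replicate block gave 1 in *Rnaseh2b*ΔIEC against WT, 2 in *Atg16l1*ΔIEC against WT, 2 in DKO against WT and 2 in DKO against *Rnaseh2b*ΔIEC, and moved the count of all genes called by over 1.5 times in *Rnaseh2b*ΔIEC against *Atg16l1*ΔIEC (872 without it, 424 with it).

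Leaving out a pair of libraries was chosen after the values were seen, and no share of all tested genes is set beside these counts. Without *Atg16l1*ΔIEC libraries 1 and 2, the calls were 1 in *Rnaseh2b*ΔIEC against WT, 4 in *Atg16l1*ΔIEC against WT, 4 in DKO against *Rnaseh2b*ΔIEC, 1 in *Rnaseh2b*ΔIEC against *Atg16l1*ΔIEC and 6 for the difference. Without *Atg16l1*ΔIEC libraries 3 and 4 they were 1, 1, 3, 1 and 1, with 2 in DKO against *Atg16l1*ΔIEC. Without DKO libraries 1 and 2 they were 1 in *Atg16l1*ΔIEC against WT, 1 in DKO against WT and 3 in DKO against *Atg16l1*ΔIEC. Without WT libraries 1 and 2 the count in DKO against WT was 1, and without WT libraries 3 and 4 it was 1 for the difference.

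Directions changed for small values that were not called in the main fit. In *Rnaseh2b*ΔIEC against WT, lane as a covariate gave -0.16 for *Mmp7*, -0.18 for *Ang4*, -0.10 for *Defa17* and -0.23 for *Defa24*, the replicate block -0.065 for *Ang4* and -0.038 for *Defa24*, total scaling -0.023 for *Defa24*, omission of WT libraries 1 and 2 -0.093 for *Defa17* and -0.20 for *Defa24*, and omission of WT libraries 3 and 4 0.051 for *Lyz1*. Single libraries left out gave -0.065 to 0.37 for *Defa17* and -0.16 to 0.19 for *Defa24*. In *Atg16l1*ΔIEC against WT, lane gave -0.20 for *Mmp7*, omission of WT libraries 3 and 4 gave 0.19 for *Lyz1* and 0.15 for *Defa17*, of *Atg16l1*ΔIEC libraries 3 and 4 0.41 for *Lyz1* and 0.20 for *Defa17*, and of *Atg16l1*ΔIEC libraries 1 and 2 -0.26 for *Mmp7*. Single libraries left out gave -0.19 to 0.13 for *Lyz1*, -0.031 to 0.31 for *Mmp7* and -0.26 to 0.0051 for *Defa17*. In *Rnaseh2b*ΔIEC against *Atg16l1*ΔIEC, the replicate block gave -0.13 for *Mmp7*, omission of *Atg16l1*ΔIEC libraries 1 and 2 gave 0.29 for *Lyz1* and 0.23 for *Itln1*, and of libraries 3 and 4 -0.37 for *Mmp7* and -0.050 for *Defa17*. Single libraries left out gave -0.29 to 0.031 for *Lyz1*, -0.11 to 0.24 for *Mmp7* and -0.14 to 0.11 for *Itln1*. The difference between effects for *Mmp7* was -0.030 without *Atg16l1*ΔIEC libraries 3 and 4.

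Counts were not analysed here, so limits set by depth are unknown. The main fit called 3424, 2450, 2063, 3218, 3262, 872 and 4499 genes in the order given first, the random block 728, 384, 85, 478, 692, 61 and 1553, and lane as a covariate 1504, 1586, 1418, 3976, 3466, 1622 and 2580.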
